A study of Arabidopsis thaliana with 10 samples.

Results

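The genes described here were much lower in ageing wild type leaves of Arabidopsis thaliana and lay close to that low level, on a log2 scale with 16 added to the signal, in 3 lines altered in stress hormone pathways. They were chosen from the measured values. A probe set, the unit that reads 1 transcript on the array, was taken if its log2(signal + 16) in wild type was lower by 2 or more at stage 6.0 than at stage 3.9. It also had to lie within 0.4 of the stage 6.0 wild type in each of the other genotypes. Only probe sets that reached a signal of 50 on 2 or more arrays were considered. Of these 12184, 297 met the first condition, or 2.44%, and 49 met both. The platform table names 1 gene for 26 of the 49 and none for 23. The rule also sets aside EXPA8, AT5G63180, AT3G16370, AT1G29670, PSAE-1 and the plastid-encoded genes, but this removed 0 probe sets, because those meeting the first condition failed the second.

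RNA of fully expanded leaves was hybridised to 10 Affymetrix arrays in 5 groups of 2, to ask how genes of stress response pathways act on expression during senescence. Wild type leaves of the Columbia background were taken at growth stage 3.9, here called green, and at stage 6.0, and in either group array 1 comes from stock N933 and array 2 from stock N1644. Leaves of NahG, ein2 and coi1, all in Columbia, were taken at stage 6.0 only, so no genotype other than wild type has a green sample. All plants grew untreated on compost at 18 °C with a 12 h day. NahG is a transgene for a bacterial salicylate hydroxylase, and its promoter is not stated. ein2 plants are insensitive to ethylene and coi1 plants to jasmonate, although the labels call both lines transgenic and give them the same stock code, N3071. NahG has no stock code, and the stage 6.0 array of stock N1644 is also labelled Col-0, the name given to stock N933 at stage 3.9, where stock N1644 is labelled Col-5. Neither EIN2 nor COI1 has a named probe set in the tables used, so neither mutation was checked on the arrays. Whether the arrays of a group come from separate plants is not said in the labels, so p-values measure only the spread between these samples, and that spread may be technical.

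A leaf that has finished growing no longer builds new cell wall at the rate of a young one. The leaves compared here were all fully expanded, and whether their wall building differed was not tested. During senescence a leaf dismantles its chloroplasts and exports their nitrogen, and genes for photosynthesis and pigment synthesis are turned down. Salicylic acid, ethylene and jasmonate each influence how this programme is carried out, and lines that lack or cannot sense one of them are used to find the genes that depend on it. In leaf RNA, fewer cells of a type and less RNA per cell cannot be told apart.

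Signals were read from arrays scaled to a common trimmed mean, and a change is given as a log2 difference of group means of log2(signal + 16) with its standard error from limma after ±. The added 16 makes the change of dim probe sets look smaller than it was on the signal scale. The labelled leaf tissue was checked with RCA, the Rubisco activase of mesophyll cells, whose lowest signal on any array was 1719 and which was the only 1 of 4 mesophyll markers with a named probe set. It fell by 0.91 ± 0.22 (adjusted p = 0.00828). Of 39 markers of leaf cell types and other organs 7 had a named probe set and 3 were tested. The guard cell marker GASA9 was lower, with a log2 change of -2.996 ± 0.279 (adjusted p = 1.93e-05), and PYK10, a marker of roots, gave a stage difference of -0.00 ± 0.25 (adjusted p = 0.995). At stage 6.0 PYK10 read 118 and 95.8 in NahG, above the 12.5 and 29.4 of wild type, and 18.7 to 37.7 in ein2 and coi1. The part of cell types in the members' fall and genotype differences was not tested.

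The falls of the 49 members ran from -5.35 to -2.01 with a median of -2.43, against a median of 0.05 over all tested probe sets. On every one of the 49, all 8 stage 6.0 arrays read lower than both green arrays, as did 17.8% of all tested probe sets. All 49 passed the limma test for a lower level, which 17.2% of all tested probe sets passed, and since the rule used this contrast neither count is evidence about the members. Over the members, the median signal was 226 and 174 on the green arrays and 16.9 and 26.2 in wild type at stage 6.0. It was 29.7 and 24.9 for NahG, 28.3 and 19.4 for ein2, and 23.8 and 25.7 for coi1. The stage 6.0 arrays of the 4 genotypes overlapped in their median, and all stood far below the green leaves. The rule selected for both features, so they only describe the members.

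**Figure D1:**
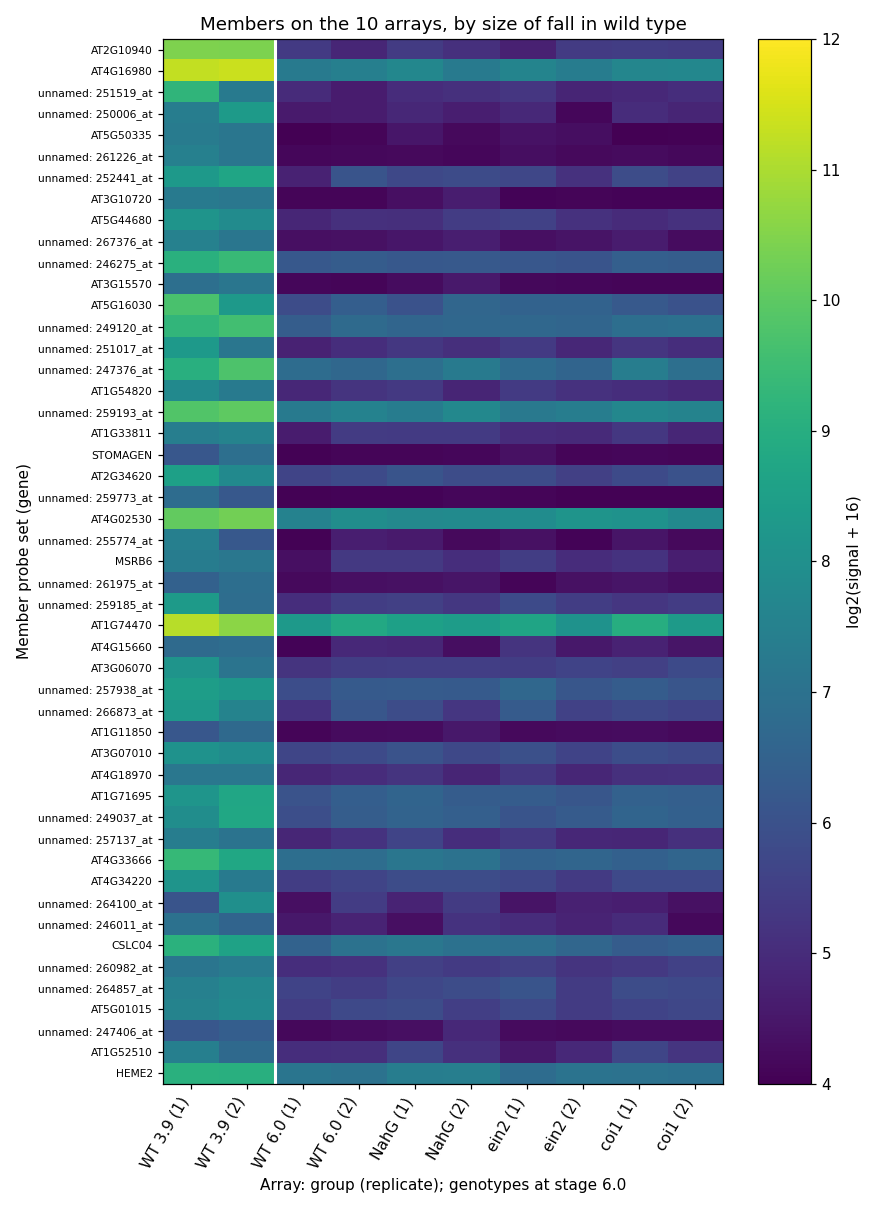
Colour gives log2(signal + 16) of each of the 49 members (rows, largest fall at the top) on each of the 10 arrays (columns), and the white line parts the green arrays from those at stage 6.0. Members lie at very different levels in green leaves, and the 8 stage 6.0 columns are darker than the 2 green columns in every row.

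Genes for secreted and cell wall proteins made up the largest group with a known role, 9 of the 26 named members, with falls from -5.35 to -2.11 and a median of -2.48. Roles were assigned to the members only, after they were seen. No share over all tested probe sets was counted, so nothing is read from the size of a group. AT2G10940, of the family of seed storage and lipid transfer proteins, had the largest fall. Its signal was 1397 and 1370 in green leaves and 24.8 and 13.0 in wild type at stage 6.0. It was 26.4 and 18.6 for NahG, 10.7 and 26.0 for ein2, and 27.9 and 25.7 for coi1. The fall was -5.35 ± 0.25, and the difference from wild type at stage 6.0 was 0.16 in NahG, -0.04 in ein2 and 0.31 in coi1. Every stage 6.0 array was low, with the wild type range overlapped by NahG and ein2 and exceeded slightly by both coi1 arrays.

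AT4G16980, of the arabinogalactan proteins, which are heavily glycosylated proteins of the cell surface, kept a clear signal at stage 6.0. It read 2466 and 2596 in green leaves and 140 and 161 in wild type at stage 6.0, a fall of -3.94 ± 0.19. NahG gave 194 and 140, ein2 180 and 149, and coi1 188 and 193. Only the coi1 arrays lay wholly above wild type, by 0.31. A second probe set for the same gene, outside the members because its fall was -1.88, read 85.9 and 78.4 in green leaves and 12.3 and 9.16 in wild type at stage 6.0. There it read 13.4 and 5.74 for NahG, 14.8 and 11.7 for ein2, and 3.22 and 5.54 for coi1, with a coi1 difference of -0.39. These later signals are all under the added 16, too dim for the order of the genotypes to be read.

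AT3G10720 belongs to the pectin methylesterases, which trim methyl groups from wall pectin. It read 139 and 127 in green leaves and 1.31 on both wild type arrays at stage 6.0. The other genotypes gave 4.13 and 8.86 for NahG, 0.805 and 1.21 for ein2, and 0.905 and 1.01 for coi1. Both NahG arrays were above the wild type pair, by 0.37 on the scale with 16 added, and all of these stage 6.0 signals are too dim to be ordered with any confidence. Its fall was -3.11 ± 0.31.

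AT1G33811, a GDSL-type lipase or esterase, a large family with many secreted members, read 154 and 174 in green leaves. At stage 6.0 it read 8.35 and 26.2 in wild type, 25.0 and 24.9 for NahG, 16.4 and 14.7 for ein2, and 23.4 and 12.9 for coi1. The 2 wild type arrays enclosed all 6 of the others, and the fall was -2.49 ± 0.28. STOMAGEN, a secreted peptide that promotes the formation of stomata and is made in the inner leaf tissue, read 56.2 and 105 in green leaves. At stage 6.0 it read 0.403 and 1.11 in wild type, 1.31 and 1.51 for NahG, 4.63 and 1.11 for ein2, and 1.81 and 1.31 for coi1. Its fall of -2.48 ± 0.37 went to signals near 0 on every stage 6.0 array.

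CSLC04, a synthase of the glucan backbone of xyloglucan, read 541 and 376 in green leaves and 75.5 and 112 in wild type at stage 6.0. NahG gave 128 and 111, ein2 106 and 84.7, and coi1 64.8 and 72.2. Its fall was -2.11 ± 0.22. NahG stood 0.32 above wild type and coi1 0.36 below on average, with both coi1 arrays under both wild type arrays, so within the window the genotypes were spread as widely as 0.68 between coi1 and NahG. The other named members of the group were the pectate lyase AT3G07010 with a fall of -2.26, the GDSL-type protein AT4G18970 with -2.23 and the peroxidase AT1G71695 with -2.22.

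**Figure D2:**
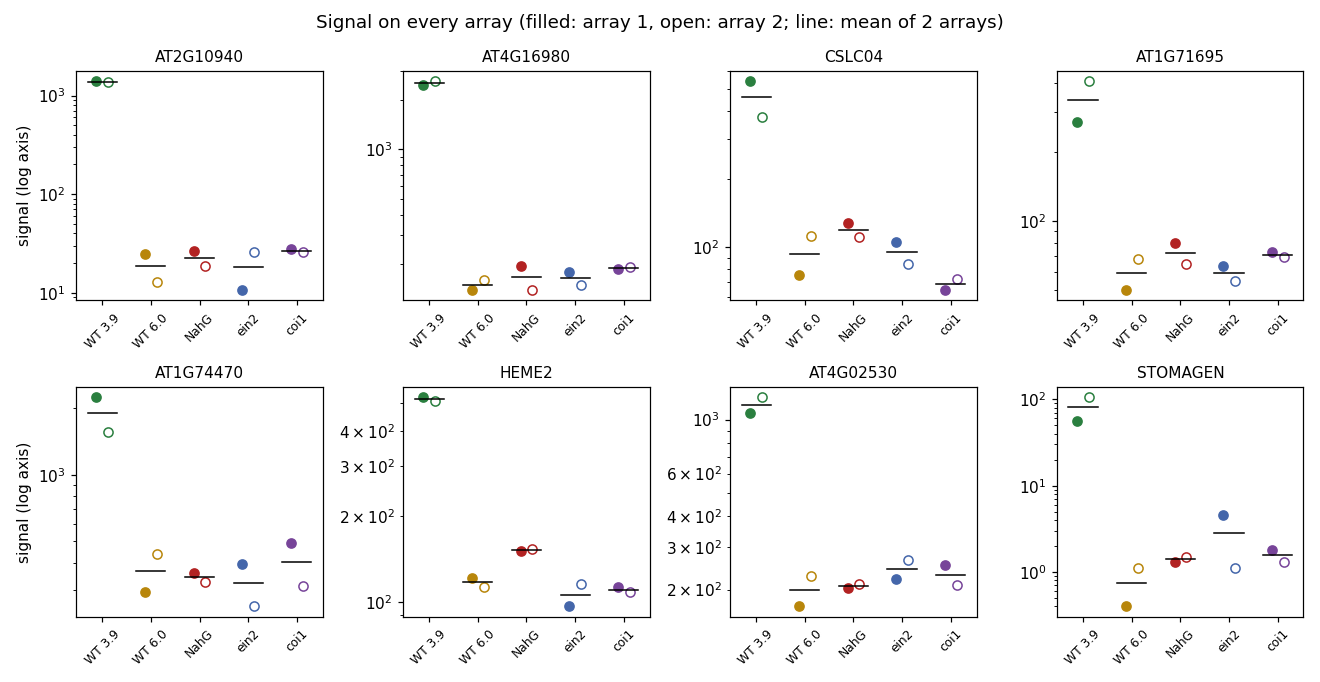
Signal of 8 members on each array (log axis, scaled separately for each gene), with filled points for array 1, open points for array 2 and a line at the mean of the 2 arrays of a group. In each panel the green arrays stand above all 8 arrays at stage 6.0, and STOMAGEN ends below 5 while AT1G74470 stays above 250.

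The next group, taken here as plastid proteins, had 5 named members and falls between -2.46 and -2.01. Where MSRB6 acts in the cell was not checked, so its place in this group is uncertain. AT1G74470 is geranylgeranyl reductase, which makes the phytol tail of chlorophyll and of tocopherol. It read 2239 and 1554 in green leaves and 295 and 437 in wild type at stage 6.0. NahG gave 358 and 327, ein2 394 and 254, and coi1 490 and 313. The groups at stage 6.0 overlapped throughout, with differences from wild type of -0.07, -0.18 and 0.12, and the fall was -2.33 ± 0.29. It had the highest stage 6.0 wild type signal of the members.

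HEME2, a uroporphyrinogen decarboxylase of the pathway that leads to chlorophyll and haem, read 525 and 510 in green leaves and 121 and 113 in wild type at stage 6.0. NahG gave 151 and 154, ein2 96.4 and 116, and coi1 113 and 108. Both NahG arrays were above wild type, by 0.34, and ein2 and coi1 differed from it by -0.13 and -0.07. Its fall of -2.01 ± 0.16 is the smallest of all members.

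AT4G02530, a protein of the thylakoid lumen, read 1069 and 1233 in green leaves and 171 and 228 in wild type at stage 6.0, a fall of -2.45 ± 0.19. It read 203 and 211 for NahG, 221 and 264 for ein2, and 252 and 209 for coi1. The means of all 3 lines were higher than that of wild type, by 0.06, 0.27 and 0.20, and each pair of arrays overlapped the wild type range. AT2G34620, of the mTERF proteins of organelle gene expression, fell by 2.46. MSRB6, a methionine sulfoxide reductase that repairs oxidised proteins, fell by 2.43.

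Signalling and regulatory proteins gave 4 named members. AT3G15570, related to the phototropism protein NPH3, read 106 and 126 in green leaves and 1.61 and 1.11 in wild type at stage 6.0. NahG gave 3.22 and 7.15, ein2 2.11 and 1.71, and coi1 1.31 and 1.31, and the fall was -2.92 ± 0.32. All 8 later signals are close to 0, and both NahG arrays were the highest of them.

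AT1G54820, a protein kinase, read 208 and 143 in green leaves and 13.5 and 20.7 in wild type at stage 6.0. NahG gave 23.9 and 12.3, ein2 24.7 and 19.0, and coi1 17.3 and 14.0. These ranges overlap, and the fall was -2.52 ± 0.27. The glutaredoxin AT4G15660 had a fall of -2.32 and the receptor-like kinase AT4G34220 one of -2.17. Among other enzymes, AT5G44680, of the DNA glycosylases that remove damaged bases, read 265 and 219 in green leaves and 13.0 and 18.6 in wild type at stage 6.0. It read 17.8 and 27.3 for NahG, 30.8 and 19.4 for ein2, and 15.8 and 19.0 for coi1, and the ein2 pair lay above both wild type arrays. Its fall was -3.02 ± 0.24, and that of AT1G52510, an alpha/beta hydrolase, was -2.02.

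A further 6 named members have no role assigned here. AT5G50335 read 144 and 127 in green leaves and 0.201 and 1.21 in wild type at stage 6.0. NahG gave 6.34 and 2.62, ein2 4.93 and 3.83, and coi1 0.604 on 1 array and a listed 0 on the other. With a fall of -3.18 ± 0.31, it was at or near 0 on every later array. AT4G33666 read 637 and 421 in green leaves and 103 and 100.2 in wild type at stage 6.0. NahG gave 126 and 112, ein2 75.2 and 82.0, and coi1 72.1 and 81.5. Its groups at stage 6.0 did not overlap with wild type in any of the 3 lines, with differences of 0.20, -0.31 and -0.34, and its fall was -2.19 ± 0.20. The falls of AT3G06070, AT1G11850 and AT5G01015 were -2.28, -2.27 and -2.06.

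AT5G16030 was the named member whose green arrays differed most as a ratio. It read 810 on the green array of stock N933 and 300.4 on that of stock N1644, and 42.4 and 68.1 in wild type at stage 6.0. NahG gave 49.1 and 82.8, ein2 74.6 and 75.9, and coi1 58.9 and 49.4. Its fall was -2.87 ± 0.38, with ein2 above both wild type arrays by 0.38.

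The 23 members without a named gene had falls from -3.47 to -2.05, with a median of -2.45 beside -2.38 for the named ones. Their mean green signals ran from 61.7 to 951 and their mean stage 6.0 wild type signals from 0.654 to 155.

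The rule kept a minority of the strongly lowered probe sets, 49 of 297 or 16.5%, and most of those it left out were outside the window in NahG. Over all tested probe sets 68.8% lay within 0.4 of wild type in NahG, 82.6% in ein2 and 77.3% in coi1, and 51.3% in all 3. Among the 297, 89 were within the window in NahG, 210 in ein2 and 144 in coi1. Outside it, NahG was above wild type on 205 and below on 3, ein2 above on 71 and below on 16, and coi1 above on 136 and below on 17. The NahG condition alone kept out 63 probe sets, the coi1 condition alone 27 and the ein2 condition alone 3. The stage 6.0 wild type arrays enter the fall and all 3 genotype differences, so these contrasts share control samples.

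Inside the window, the members leaned to the same side. NahG was above wild type on 46 of the 49, ein2 on 32 and coi1 on 36. The shares of all tested probe sets were 51.5%, 50.9% and 55.2%. Among the strongly lowered probe sets, from which the members were taken, they were 95.3%, 69.0% and 80.5%. The lean was thus not particular to the members. The median differences of the members were 0.20 in NahG, 0.05 in ein2 and 0.10 in coi1. All 3 lines were above wild type on 23 members. The rule used these contrasts, and nothing is read from the counts. Measured from the green wild type, the median change was -2.28 in NahG, -2.43 in ein2 and -2.31 in coi1, and that contrast joins genotype and stage.

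**Figure D3:**
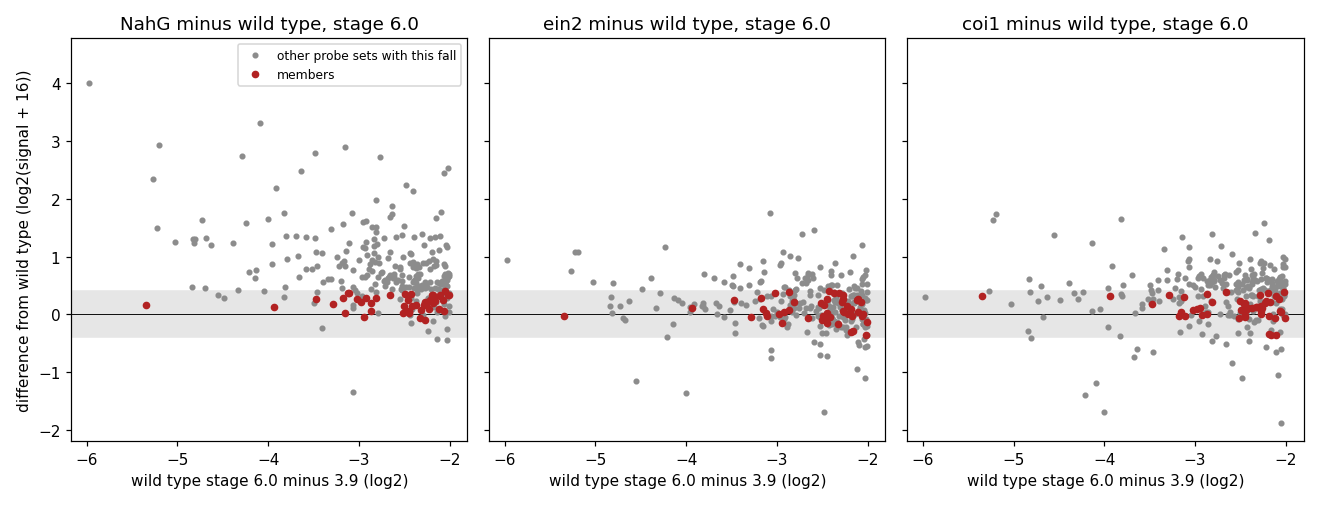
Difference of each genotype from wild type at stage 6.0 (vertical, log2) against the fall in wild type (horizontal, log2) for the 297 probe sets that were lower by 2 or more, with the 49 members in red and the window of 0.4 shaded. The grey points outside the window lie mostly above it in NahG (205 above, 3 below).

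Both limits of the rule cut through a continuous range. Just inside the first limit were HEME2 with -2.01, AT1G52510 with -2.02, AT5G01015 with -2.06 and 2 unnamed probe sets with -2.05 and -2.07. Just outside were AT1G05210 with -1.99, AT1G48330 with -1.93, AT3G14240 with -1.92 and 2 unnamed probe sets with -1.98 and -1.90. At the second limit, the largest genotype difference was 0.40 for MSRB6 and for 1 unnamed member, 0.39 for AT1G52510 and another unnamed one, and 0.38 for AT5G16030. Outside it were AT1G29660 with 0.41, AT1G09750 and AT3G05730 with 0.42 each, and 2 unnamed probe sets with 0.41 and 0.42. AT1G29660 and AT1G09750 had falls of -4.04 and -4.34, larger than that of every member but AT2G10940.

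Low signals at stage 6.0 bear on the second condition. The stage 6.0 wild type mean was under 50 for 35 of the 49 members and under 16 for 20 of them. Of all tested probe sets 16.8% were under 50 and 0.911% under 16, and of the 297 strongly lowered ones 46.8% and 19.2%. Below 16 the added constant exceeds the signal, and a difference between 2 such dim signals comes out smaller than their ratio. With 1 added in place of 16, AT5G50335 stood 1.66 above wild type in NahG and 1.72 in ein2, AT3G10720 stood 1.62 above in NahG, and AT3G15570 1.32. On that scale 26 of the 49 were within 0.4 in NahG, 33 in ein2, 32 in coi1 and 15 in all 3.

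For members that keep a measurable signal, the genotype differences depend less on the added constant. A mean of 50 or more in all 4 genotypes at stage 6.0 was reached by 14 members. The 8 named ones are AT4G16980, AT5G16030, AT4G02530, AT1G74470, AT1G71695, AT4G33666, CSLC04 and HEME2. Of the 14, 8 also stayed within 0.4 with 1 added, and 6 of these are named. They are the arabinogalactan protein AT4G16980, the thylakoid lumen protein AT4G02530, geranylgeranyl reductase AT1G74470, the peroxidase AT1G71695, AT4G33666 and HEME2. The rule required this closeness with 16 added, so nothing is read from the counts. Within 0.4 does not mean overlap with wild type. With 1 added AT4G33666 differed by 0.23 in NahG, -0.37 in ein2 and -0.40 in coi1, without overlap in any line. In NahG HEME2 was 0.38 above wild type, with both arrays higher. Both coi1 arrays of AT4G16980 and AT1G71695 lay above wild type, while AT4G02530 and AT1G74470 overlapped it in every line.

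**Figure D4:**
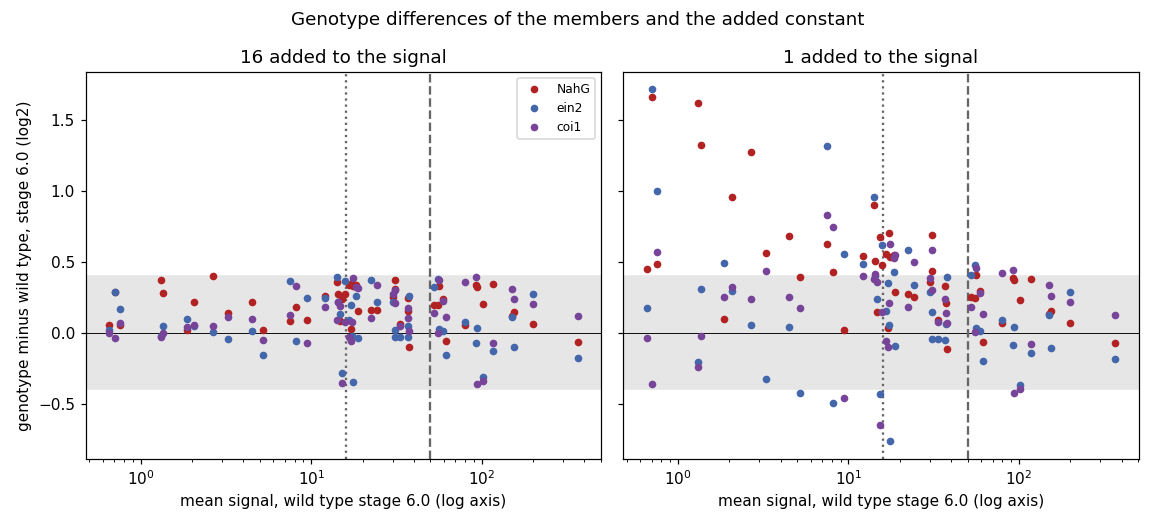
Difference of NahG, ein2 and coi1 from wild type at stage 6.0 (vertical, log2) against the stage 6.0 wild type mean signal (horizontal, log axis) for the 49 members, with 16 added to the signal on the left and 1 added on the right. The grey band is the window of 0.4, the dotted line marks a signal of 16 and the dashed line 50, and with 1 added many points left of the dotted line leave the band.

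Whether the 2 wild type stocks differed was not used by the rule. Array 1 of each wild type group is N933 and array 2 is N1644, and the difference between stocks was tested over both stages. None of the 49 members passed (limma, 0 of 49, lowest adjusted p = 0.196), where 0.0328% of all tested probe sets did. Without adjustment 6 of the 49 and 1191 of the 12184 had a p under 0.05. N1644 was the higher stock on 26 of the 49 members, against 51.4% of all tested probe sets. The differences ran from -1.16 to 1.49 with a median of 0.04, and among named members the smallest unadjusted p was that of AT1G71695, at 0.46 ± 0.17 (limma, adjusted p = 0.403).

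All 49 were lower at stage 6.0 in each stock, by 2 or more in both stocks on 29, against 34.9% and 1.76% of all tested probe sets. The rule used the mean of these 2 falls, and nothing is read from the counts. The falls had a median of -2.78 in N933, from -5.12 to -1.75, and of -2.16 in N1644, from -5.58 to -1.43. The difference between the falls was tested as an interaction, and again 0 of the 49 passed (limma, lowest adjusted p = 0.0785), with 10 of them under 0.05 unadjusted. Of all tested probe sets 0.427% passed and 1218 were under 0.05 unadjusted. The fall was larger in N933 on 34 of the 49, against 54.0% of all tested probe sets, and the median interaction was 0.38 for the members, 0.25 for the 297 and 0.05 for all. The lowest adjusted p belonged to AT5G16030, which was lower by 3.82 in N933 and by 1.91 in N1644, a difference of 1.91 ± 0.42. The outcome depends on the settings. For AT5G16030 the adjusted p was 0.0443 without NahG array 1 and 0.0466 without NahG array 2. With 64 added to the signal 3 members passed, AT5G16030 with a difference of 1.58 (adjusted p = 0.0299) and 2 unnamed ones with 1.55 (adjusted p = 0.00997) and 1.37 (adjusted p = 0.0238). Each stock at each stage is 1 array, so the 3 residual degrees of freedom of this fit come from the NahG, ein2 and coi1 pairs, and wild type is assumed to vary like them. The median standard error of the members' interactions was 0.48, larger than their median interaction, so that differences of that size were not detectable and the count of 0 does not show equal falls. On simulated data the interaction test recovered 0% of differences of 1, 48% of differences of 2 and 94.5% of differences of 3. These were set on 200 probe sets drawn from all tested ones, not from the members. The median standard error of the interaction was 0.40 over all tested probe sets, below the 0.48 of the members, so recovery among the members may be lower.

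The low end of the arrays moved with the stock contrast at stage 6.0. The 25th percentile of all signals was 9.66 on the N933 array and 17.4 on the N1644 array, and from 12.5 to 18.3 on the other 8 arrays. The N1644 array gave the higher signal on 41 of the 49 members, on 76.1% of the 297 strongly lowered probe sets and on 54% of all tested ones. The part of this in the interaction and in the size of the falls was not tested. Without the N933 array of stage 6.0 the rule gave 54 members, 33 of them among the 49. Without the N1644 array it gave 34, of which 26 were among the 49.

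**Figure D5:**
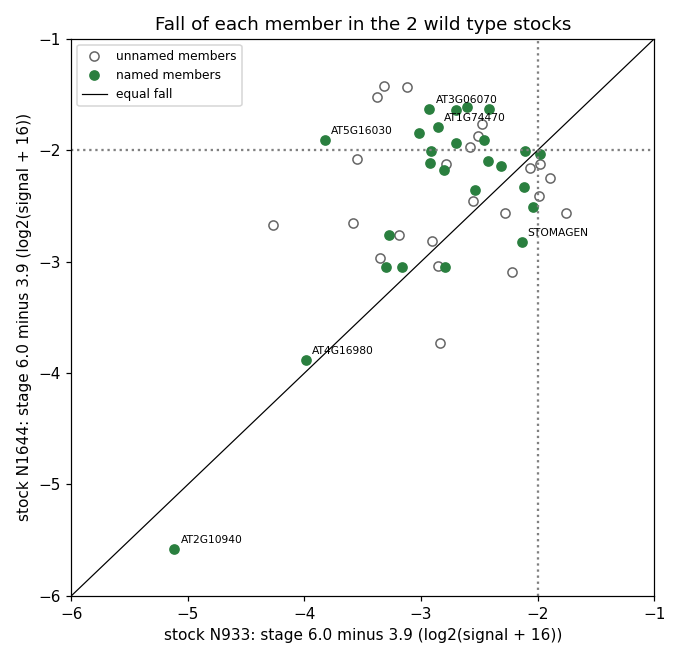
Fall of each member from stage 3.9 to 6.0 in stock N933 (horizontal) and stock N1644 (vertical), both as log2 differences between single arrays, with filled points for named members and a line at equal falls. Most points, 34 of 49, lie above the line, where the fall is larger in N933, and AT5G16030 shows this clearly while AT2G10940 lies on the other side.

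Quality measures also differed between the stages. The ratio of 3′ to 5′ signal of a control gene rises as RNA degrades, and the controls did not move together. That of ubiquitin was 2.97 and 2.53 in green leaves and 1.69 and 1.82 in wild type at stage 6.0. For actin, 1 pair of probe sets went the other way, from 5.09 and 4.09 to 10.0 and 5.18. A second actin pair was lower in wild type at stage 6.0, from 2.431 and 2.696 to 2.076 and 1.772. A second ubiquitin pair was also lower, from 2.115 and 2.24 to 1.337 and 1.305. The GAPDH ratio was 2.50 and 2.93 against 2.42 and 1.91. The mean signal of the hybridisation controls, added in equal amount to each array, was 438 and 409 in green leaves and 230 and 255 in wild type at stage 6.0. Scaled to those controls, the median of all tested probe sets moved from 0.05 to 0.72 and that of the members from -2.43 to -1.83. This scaling multiplies all probe sets of an array by the same factor. On that scale all 49 passed the test for a lower level, as did 443 of the 12184 tested probe sets, with members' falls from -4.68 to -1.25. The members were chosen on this contrast, so nothing is read from that count. The part of RNA quality in the falls was not tested.

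Related genes outside the members were counted over lists matched by gene symbol, and were tested for the same change of stage, for which 17.2% of all tested probe sets fell and 20.2% rose. Of 21 probe sets for photosystems, light harvesting and electron transport, 0 were members, 16 fell, 0 rose and 5 did not pass, with a median of -1.64. LHCB4.2, a minor antenna protein of photosystem II, fell by 3.48, and PSAN, a subunit of photosystem I, fell by 3.17. In NahG they stood 1.33 and 1.56 above the stage 6.0 wild type, outside the window. In ein2 they were 0.67 and 0.58 above it, also outside, and in coi1 0.19 and 0.30. Other chloroplast proteins gave 5 that fell and 5 that did not pass of 10, with a median of -1.03, and genes of the Calvin cycle and carbon metabolism 4 that fell and 2 that did not of 6.

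HEME2 was 1 of 10 probe sets in the list for chlorophyll, carotenoid and tetrapyrrole synthesis. Of the other 9, 7 fell, 0 rose and 2 did not pass, with a median of -1.77. PORB, a light-dependent protochlorophyllide reductase, fell by 3.79. CHLM, a methyltransferase of the magnesium branch, fell by 2.68, and CHLI2, a subunit of magnesium chelatase, fell by 2.43. PORB and CHLM were 0.95 and 0.63 above the stage 6.0 wild type in NahG, and 0.50 and 0.63 above it in coi1. CHLI2 was 0.61 above it in coi1. HEME1, the other uroporphyrinogen decarboxylase, fell by 1.77 and differed from wild type by -0.16 in NahG, -0.37 in ein2 and -0.08 in coi1, so it missed the rule by its fall alone. The list was matched by the letters of symbols and so also holds CHL and PSY1R, which are not enzymes of these pathways.

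CSLC04 was 1 of 24 probe sets in the cell wall list. Of the other 23, 11 fell, 1 rose and 11 did not pass, with a median of -0.67. XTH32, which cuts and rejoins xyloglucan, fell by 2.95, and the glycosyl hydrolases of the endoglucanase family GH9B7 and GH9C2 changed by -2.91 and -2.66. These were 1.60, 1.03 and 1.68 above the stage 6.0 wild type in NahG. They were also 0.88, 0.48 and 0.60 above it in ein2, and 0.67, 0.32 and 0.52 in coi1. Of the relatives of CSLC04, CSLC5 fell by 1.34 and CSLC6 gave a difference of -0.21 (adjusted p = 0.478).

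Lists for other processes matched 0 members, which says nothing of the members' functions, since a gene known only by its locus code, such as the lipid transfer protein AT2G10940 or the kinase AT1G54820, cannot be matched by symbol. Of 22 probe sets for secreted proteases, lipases and lipid transfer proteins, 11 fell and 6 rose, and of 18 for the cytoskeleton, cell division and DNA, 6 fell and 2 rose. Of 26 transcription factors, 9 rose and 2 fell. Of 12 probe sets matched as kinases and receptors, 5 rose and 2 fell, and these include metabolic and chloroplast proteins, since the 2 that fell are PRK, the phosphoribulokinase of the Calvin cycle, and CaS, a calcium sensor of the thylakoid, and PPDK, a pyruvate phosphate dikinase, is among those that rose. Of 9 hormone genes, 5 rose and 2 fell, and of 15 transporters, 4 rose and 0 fell. Glucosinolate and sulfur genes gave 3 of 10 that rose and 0 that fell, and those of fatty acid, wax and membrane lipid synthesis 1 of 4 that fell. No 2 named members lie within 10 genes of each other in the TAIR10.1 annotation.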

How the data were processed

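The authors deposited 1 intensity per probe set and array on a linear scale, made with MAS5 per the submitters' processing notes, with no version given in the sources used here, and without detection calls. Of 22810 probe sets, 64 controls were left out, and the rest of each array was brought to a trimmed mean of 100 (2% trimmed). Tests covered the 12184 that reached a signal of 50 on 2 or more arrays, of which 6452 name 1 gene. Changes of log2(signal + 16) were fitted with limma 3.58.1 (lmFit and trended eBayes; R 4.3.3) over all 5 groups (degrees of freedom 5 residual and 5.74 prior). The stock was added as a term for wild type (4 and 6.98) and with its interaction with stage (3 and 9.28). Calls had a Benjamini-Hochberg adjusted p under 0.05 over all tested probe sets. The median standard errors were 0.21, 0.21 and 0.40, and the number of arrays limits the precision. The fits were tested on simulated data. Tables and figures used matplotlib 3.10.9, numpy 2.4.6 and pandas 2.3.3 under python 3.11.15.

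The members, lists and rule for named genes were chosen with earlier results of these data known. Signals on every array are given for the 10 named members of largest fall, the 5 of highest wild type signal at each stage, and up to 3 members per list. The 5 probe sets nearest each limit are also named. Symbols come from the platform's table and from RefSeq (TAIR10.1), which gives names but no products, so lists were matched by symbols and synonyms. Groups of members by role were formed after the members were seen, from general knowledge of the genes. Pairing comes from the stock shared by wild type arrays of the same number, whose deviations from their group means correlated at 0.0762.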

Additional observations from a re-analysis of the deposited data

How the results depend on the processing

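The count of 49 members depends on the added constant. It was 25 with 1 added, 15 of them among the 49, and 26 with 64 added, 11 of them among the 49. Scaling to the hybridisation controls gave 19, with 15 of the 49. It was 34 to 57 when 1 array was left out. Without the NahG condition it was 112, and 14 members had a stage 6.0 mean of 50 or more in all genotypes, both chosen after the data were seen. It stayed between 39 and 52 without the low-signal filter, with that filter at 100, with the values as deposited and with quantile normalization. Lower calls numbered 2099, and 1489 to 2035 with 1 array left out. They were 443 after scaling to the hybridisation controls. With array number as a replicate block there were 1996, and with stock as a block in wild type, added later, 2170, with all 49 members called in both. The 4 stock calls became 7 with 1 added, 0 without the filter, 0 on the 4 wild type arrays alone and 0 with any 1 array of NahG, ein2 or coi1 left out. The 52 interaction calls became 1 without the filter and 3 after scaling to the hybridisation controls, and were 38 to 87 with 1 array of those lines left out. Members that lost their lower call were STOMAGEN (-5.50, adjusted p = 0.0522) and an unnamed one (-5.52, adjusted p = 0.124) with 1 added, where the estimated falls were larger. Another unnamed one had smaller falls without green array 2 (-1.21, adjusted p = 0.0914) or wild type array 1 of stage 6.0 (-1.62, adjusted p = 0.0798). The causes were not tested. Signals near 0 limit the order of dim members.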
